A study of Mus musculus with 6 samples.

Results

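The heterotrimeric G proteins, the RGS proteins that switch them off, the adenylyl cyclases that they control and the phosphodiesterases that break down cyclic nucleotides were followed in livers that lacked beta-arrestin 1. The members were all rows of the deposited table whose symbol is that of a numbered or lettered Gna, Gnb, Gng, Rgs, Adcy or Pde gene, with Rgs5 and Pde2a left out. They numbered 84 of 46095 symbols. Of these, 46 had a mean of at least 0.5 FPKM (fragments per kilobase of transcript, scaled to library size) over the 6 libraries and are described. They were 11 of 16 Gα, 3 of 5 Gβ, 7 of 12 Gγ, 8 of 20 RGS, 6 of 10 adenylyl cyclase and 11 of 21 phosphodiesterase genes.

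The libraries came from C57BL/6 mice given high-fat feed over 26 weeks, 3 with Arrb1 knocked out (HFD-ARRB1-KO) and 3 wild type (HFD-WT). The diet was shared by both groups. The labels give liver as the tissue and hepatocyte as the cell type, and nothing on sex, pooling or how the allele was made. In the genotype field, replicate 2 of the knockout is given as ARRB2-/- and replicate 3 as ARRB3-/-, against their titles and the series text, which name ARRB1. Arrb1 was at 0.918, 1.05 and 1.16 FPKM in the knockout libraries and at 3.86, 22.7 and 16.9 FPKM in the wild-type libraries, with no overlap (limma, adjusted p = 0.0295). That call was lost without any 1 library other than wild-type replicate 1 (adjusted p from 0.0668 to 0.106). Depth, estimated from the steps of the FPKM values, was 13910000, 35060000 and 29170000 fragments in knockout replicates 1 to 3 and 33320000, 27910000 and 30310000 fragments in wild-type replicates 1 to 3, so knockout replicate 1 was the shallowest.

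Hormones such as glucagon and adrenaline act on the hepatocyte through seven-transmembrane receptors that load GTP onto a Gα subunit and free it from its Gβγ partner. Gs switches adenylyl cyclases on and Gi switches them off, Gq and G11 act on phospholipase C, and G12 and G13 act on guanine nucleotide exchange factors. RGS proteins speed the hydrolysis of GTP, and phosphodiesterases end the cAMP or cGMP signal. Beta-arrestins bind the activated receptors, uncouple them from G proteins and can bring phosphodiesterase 4 to the membrane.

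None of the 46 described members passed an adjusted p of 0.05 in either direction. The test was limma on log2(FPKM + 1), adjusted over the 12078 genes whose mean reached 0.5 FPKM, of which 4.40% were called higher and 1.34% lower in the knockout, or 5.74% in either direction. Of the members, 9 were higher and 4 lower at an unadjusted p under 0.05, or 19.6% and 8.70%, against 18.1% and 5.95% of all genes tested. Voom on reads recovered from the FPKM, a weighted limma fit, called 3 members higher (Rgs16, Adcy6 and Adcy7) and 0 lower, where it called 6.80% of all genes higher and 1.72% lower. With 3 libraries a group, an exact two-sided permutation test cannot go below p = 0.1 for a single gene.

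The members lay near the table as a whole in most respects. All 3 knockout values lay above all 3 wild-type values for 13 members (28.3%, against 22.4% of all genes tested) and below them for 2 (4.35%, against 7.71%). The 13 were Gnas, Gnai2, Gna11, Gna13, Gnb2, Gng2, Gng12, Rgs16, Rgs2, Adcy5, Adcy6, Adcy7 and Pde4d, and the 2 were Pde3b and Gnat2. Gng2, Adcy5 and Pde4d reached the mean of 0.5 FPKM through the knockout alone and Gnat2 through wild type alone. The choice of members therefore partly fixes their sign. The median log2 difference was 0.11 over the members and 0.07 over all genes tested, and 30 of 46 members (65.2%) and 63.5% of all genes were above 0. With median-of-ratios factors the number of members above 0 was 26. These factors were 1.0019, 1.0868 and 1.0198 in knockout replicates 1 to 3 and 0.9629, 0.9512 and 0.9833 in wild-type replicates 1 to 3. Overlap of groups was judged on FPKM not divided by them. Dividing lowers every knockout value and raises every wild-type value, so a narrow gap above wild type can depend on the scale. Over all genes, 531 were called higher and 162 lower (76.6% higher), and the share of calls that were higher was 61.1% with median-of-ratios factors and 64.1% when the libraries were quantile normalized. Leaving out 1 library moved these counts. There were 91 higher and 57 lower calls when knockout replicate 2 was dropped, and 265 higher and 123 lower when knockout replicate 3 was. Dropping knockout replicate 1 left 411 higher and 104 lower calls. For wild type, the counts were 216 and 91 on dropping replicate 1, 100 and 58 on dropping replicate 2, and 298 and 108 on dropping replicate 3.

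**Figure D1:**
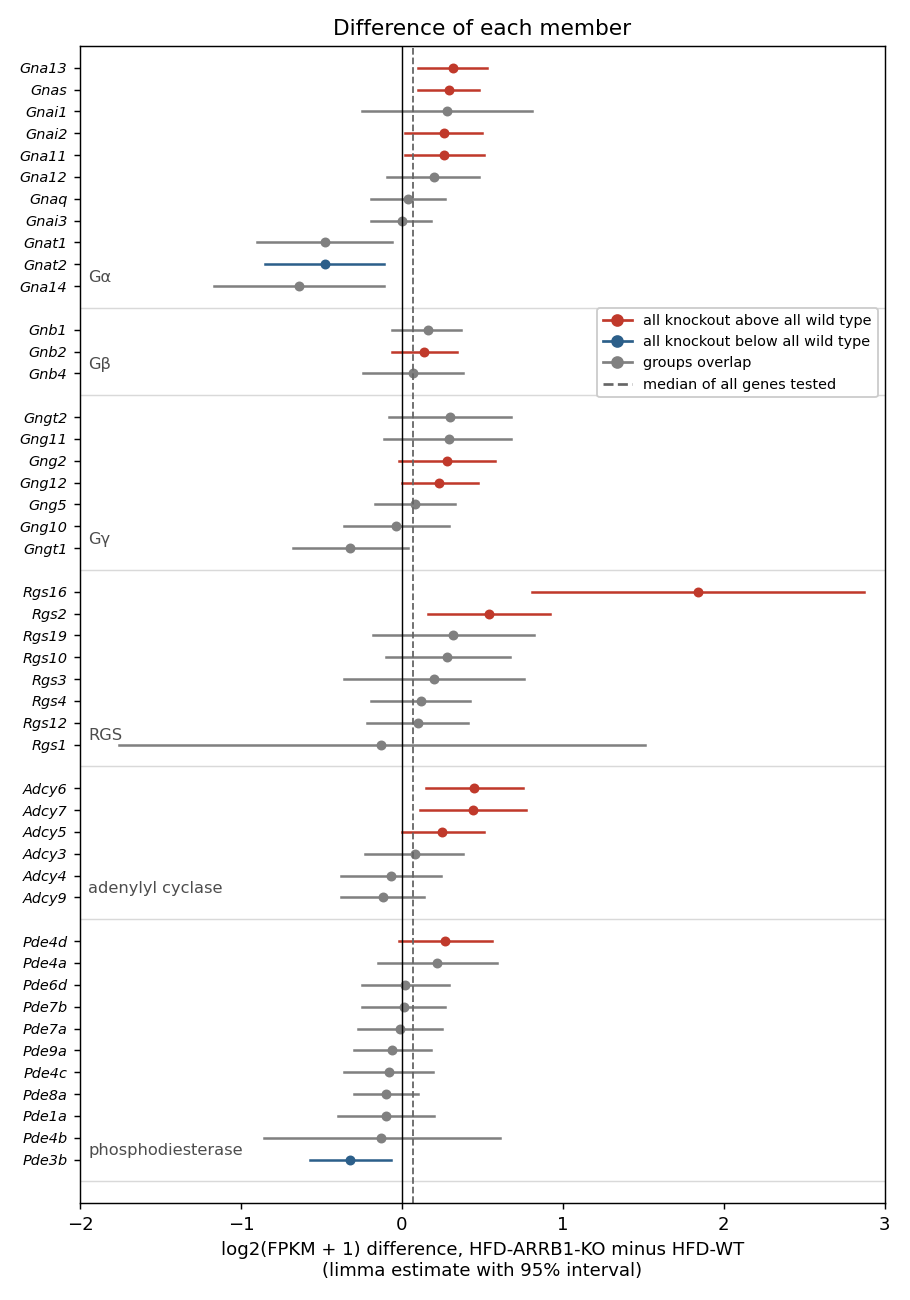
Difference in log2(FPKM + 1) between HFD-ARRB1-KO and HFD-WT (x axis) for each of the 46 described members (rows, by family), as the limma estimate with its 95% interval. Red marks members with all knockout values above all wild-type values, blue the reverse and grey an overlap; Rgs16, at 1.84, lies farthest from 0.

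RGS genes held the member with the largest difference. Rgs16 (chromosome 1, 153740349 to 153745468, plus strand, GRCm38; ENSMUSG00000026475.7) encodes a small RGS protein that acts on Gi and Gq, and in mouse liver its mRNA is known to follow feeding and the daily cycle. Knockout replicates 1 to 3 had 37.4, 75.5 and 48.1 FPKM of Rgs16, against 6.47, 14.9 and 25.6 FPKM in the wild-type replicates. Every knockout library was above every wild-type library, and both groups had a wide spread. The means were 53.7 ± 19.7 and 15.6 ± 9.58 FPKM (SD, n = 3 each), a ratio of 3.43. The log2 difference was 1.84 ± 0.442 (SE, 95% interval 0.81 to 2.87; limma, adjusted p = 0.054).

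Rgs16 sat at the threshold, so its call turned on the settings. It was called with the filter at 1 FPKM (limma, adjusted p = 0.0498), on the TPM scale (0.0402), with voom (0.0275) and without wild-type replicate 3 (0.0361). It was not called in the other fits without 1 library (0.0678 to 0.172) or after robust variance estimation (0.121). Nor was it called with median-of-ratios factors (0.0649), quantile normalization (0.0656), no filter (0.167), a pseudocount of 0.1 (0.057) or no variance trend (0.0624). Its estimate stayed between 1.35 and 2.27 with 1 library left out. The replicate number as a block gave an adjusted p of 0.0315, although the numbers were not shown to pair the libraries.

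Rgs2, a regulator that prefers Gq and is known as a gene induced by cAMP, was at 1.91, 3.19 and 1.99 FPKM in the knockout libraries and at 1.04, 1.45 and 1.39 FPKM in the wild-type libraries. The groups did not overlap, but the difference of 0.54 ± 0.163 (SE) did not pass (limma, adjusted p = 0.0994). Rgs1, a leukocyte RGS gene and the second most abundant of the family by mean FPKM, was at 0.108, 2.77 and 7.397 FPKM in the knockout libraries and at 1.08, 5.41 and 2.43 FPKM in the wild-type libraries. The knockout values lay on both sides of all wild-type values, and the interval of the difference ran from -1.76 to 1.51. The knockout replicate 1 value rested on 2 reads, and without that library the estimate turned to 0.65 (adjusted p = 0.487). The other 5 described RGS genes (Rgs3, Rgs4, Rgs10, Rgs12 and Rgs19) had overlapping groups and differences from 0.10 to 0.32. Summed over all 20 RGS genes, the level was 46.7, 90.4 and 65.2 FPKM in the knockout and 13.7, 27.9 and 36.7 FPKM in wild type. Without Rgs16 the sums were 9.27, 14.9 and 17.1 FPKM in the knockout and 7.27, 13 and 11.1 FPKM in wild type, and the groups overlapped.

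The promoters of the 2 RGS genes with non-overlapping groups and of Gna14, the member with the most negative difference, are shown to set the gene known to respond to cAMP beside the others. Each runs from 250 bases before to 50 bases after the annotated start (RefSeq, GRCm38.p6), 5′ to 3′ on the strand of the gene, and capitals mark the short form of the cAMP response element, TGACG, on either strand. Rgs16 is at chr1:153740103-153740402 (plus strand), Rgs2 at chr1:144004100-144004399 (minus strand) and Gna14 at chr19:16435417-16435716 (plus strand).
Rgs16: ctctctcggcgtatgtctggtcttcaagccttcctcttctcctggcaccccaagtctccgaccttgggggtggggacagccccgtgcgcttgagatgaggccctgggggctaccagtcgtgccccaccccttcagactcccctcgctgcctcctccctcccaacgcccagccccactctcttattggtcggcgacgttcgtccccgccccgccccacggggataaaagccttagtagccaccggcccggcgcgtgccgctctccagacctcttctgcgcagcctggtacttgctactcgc
Rgs2: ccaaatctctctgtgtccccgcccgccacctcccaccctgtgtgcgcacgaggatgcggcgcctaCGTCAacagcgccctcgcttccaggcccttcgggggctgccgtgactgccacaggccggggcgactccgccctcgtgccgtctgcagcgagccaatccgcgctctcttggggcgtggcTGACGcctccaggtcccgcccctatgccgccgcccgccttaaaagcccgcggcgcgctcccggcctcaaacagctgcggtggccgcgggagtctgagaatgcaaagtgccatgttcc
Gna14: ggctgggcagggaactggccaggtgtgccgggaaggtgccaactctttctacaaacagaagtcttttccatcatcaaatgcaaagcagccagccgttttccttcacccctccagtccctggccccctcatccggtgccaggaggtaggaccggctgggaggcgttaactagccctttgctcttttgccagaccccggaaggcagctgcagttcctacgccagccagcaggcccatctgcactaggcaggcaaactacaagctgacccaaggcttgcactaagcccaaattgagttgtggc
The Rgs2 window held 2 short elements and the windows of Rgs16 and Gna14 held 0. In GENCODE vM21 the Gna14 start lies at 16435762, outside its window, while the windows of Rgs16 and Rgs2 hold their starts. A promoter was in the RefSeq table for 36 of the 46 members, and 13 of the 36 (36.1%) had at least 1 short element, against 23.0% of 27025 genes and 20.8% of 32851 promoters. The full element, TGACGTCA, which contains the short one, was in 0 of the 36, against 2.03% of all genes. These are matches of letters in short windows and say nothing of binding.

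**Figure D2:**
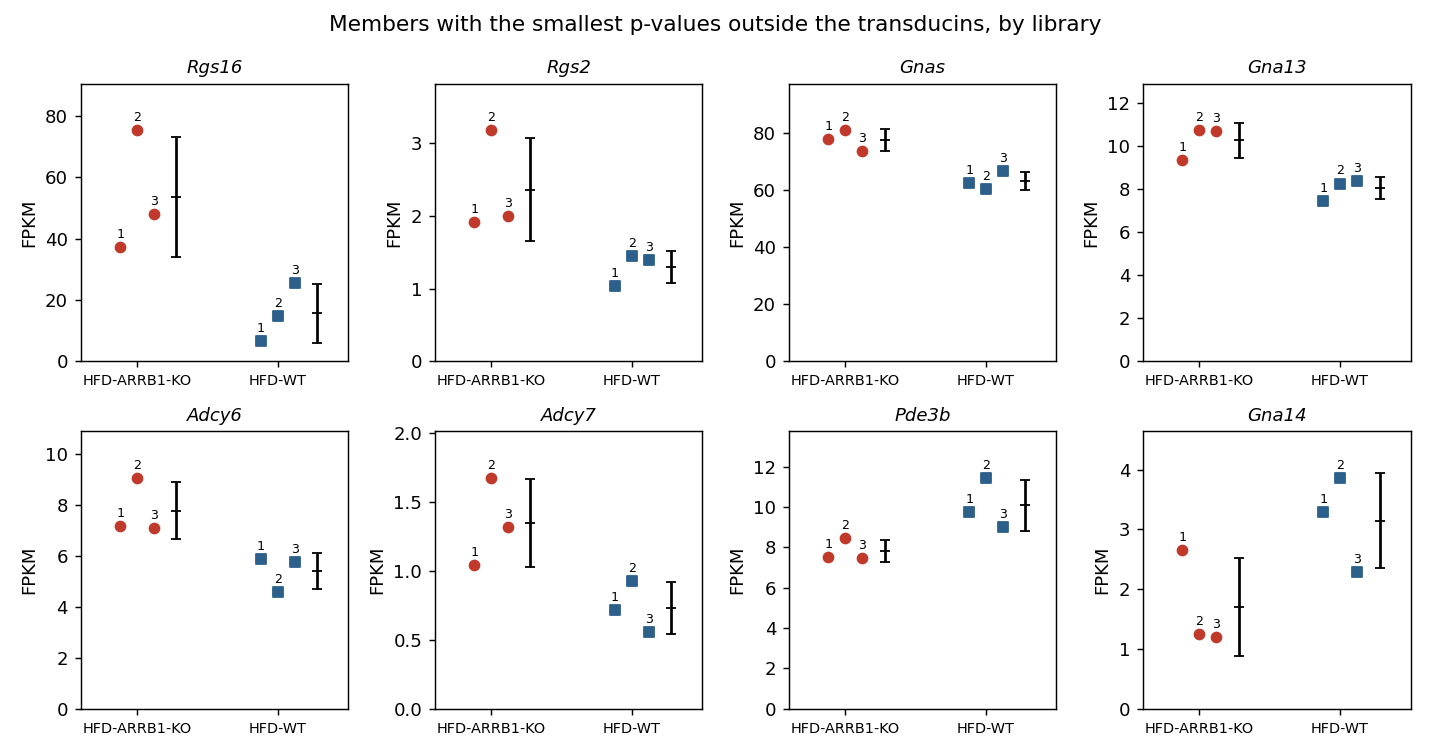
FPKM in each library (points, numbered by replicate) with the group mean and SD for 8 members, HFD-ARRB1-KO left and HFD-WT right in each panel. Rgs16, Rgs2, Gnas, Gna13, Adcy6 and Adcy7 have all knockout points above all wild-type points and Pde3b has them all below, while the groups of Gna14 overlap through the knockout replicate 1 value of 2.66 FPKM.

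Gα transcripts were dominated by Gs, Gi and G12 genes, and 4 of the 11 described members lay wholly above wild type, in a table where 22.4% of all genes tested did. Gnas (chromosome 2, 174284320 to 174346744, plus strand), which encodes the stimulatory Gαs and comes from an imprinted locus with several transcripts, was the highest Gα gene. It was at 77.9, 81.2 and 73.9 FPKM in the knockout libraries, against 62.6, 60.6 and 66.9 FPKM in the wild-type libraries. The spread within groups was narrow, with means of 77.7 ± 3.69 and 63.4 ± 3.19 FPKM (SD, n = 3 each), and the difference was 0.29 (95% interval 0.10 to 0.48; limma, adjusted p = 0.0842). Of the alternative settings, only the TPM scale called Gnas (limma, adjusted p = 0.0405). The difference was 0.19 with median-of-ratios factors (adjusted p = 0.17) and 0.25 with quantile normalization (adjusted p = 0.0884). Gna12, the next by mean, was at 61.9, 51.8 and 56.4 FPKM in the knockout and at 56.8, 42.8 and 49.0 FPKM in wild type, and the groups overlapped (adjusted p = 0.365). Gna13 (chromosome 11, from 109362831), of the same class, was at 9.33, 10.7 and 10.7 FPKM against 7.46, 8.26 and 8.39 FPKM in wild type, without overlap (adjusted p = 0.093).

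The inhibitory genes differed among themselves. Gnai2 was at 49.6, 62.9 and 53.9 FPKM in the knockout and at 48.1, 44.6 and 44.8 FPKM in wild type, without overlap and with a difference of 0.26 (limma, adjusted p = 0.172). Gnai3, close to it in sequence and role, was at 30.1, 32.8 and 29.1 FPKM against 29.9, 30.8 and 31.5 FPKM in wild type, with overlap and a 95% interval of the difference from -0.19 to 0.18. The ratio of Gnas to Gnai3 within a library, which no scaling of the library can move and which was chosen after the values were seen, was 2.59, 2.47 and 2.54 in the knockout and 2.10, 1.97 and 2.12 in wild type (exact permutation p = 0.1, the smallest possible). In the Gq class, Gna11 had values from 21.5 to 25.9 FPKM in the knockout and 18.0 to 21.5 FPKM in wild type, narrowly without overlap (adjusted p = 0.180), and Gnaq had values from 4.30 to 4.81 FPKM in the knockout and 3.87 to 4.73 FPKM in wild type. Gnai1, the least abundant inhibitory gene described, overlapped, with 0.698 to 2.28 FPKM in the knockout and 0.830 to 1.13 FPKM in wild type (difference 0.28).

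Gna14 (chromosome 19, 16435762 to 16610820, plus strand), a Gq-class gene, had the most negative difference of all members. It was at 2.66, 1.26 and 1.196 FPKM in the knockout libraries and at 3.28, 3.87 and 2.29 FPKM in the wild-type libraries. Knockout replicate 1 lay between the wild-type values, and the other knockout libraries lay below all of them. Reads on the gene were 125, 149 and 118 in knockout replicates 1 to 3. The difference was -0.64 ± 0.228 (SE, limma, adjusted p = 0.140), and without knockout replicate 1 it was -0.88 and was called (adjusted p = 0.0473). In the other fits without 1 library it ran from -0.8 to -0.51 and was not called (adjusted p from 0.118 to 0.349).

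Summed over classes, Gs made up 29.0% to 29.7% of Gα FPKM in the knockout libraries and 26.4% to 28.8% in the wild-type libraries. The Gi and Go class made up 30.6% to 35.6% and 33.3% to 35.0%, and the G12 and G13 class 22.7% to 27.1% and 23.5% to 27.0%. The total was 265 ± 10.3 FPKM in the knockout and 229 ± 10.3 FPKM in wild type (SD, n = 3 each). The Gq and G11 class made up 10.6% to 12.3% in the knockout and 11.8% to 12.4% in wild type, and the transducins 0.300% to 0.886% and 1.07% to 1.24%. The groups did not overlap for the total, for the share of Gs, which was higher in the knockout, or for that of the transducins, which was lower; the other 3 shares overlapped.

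**Figure D3:**
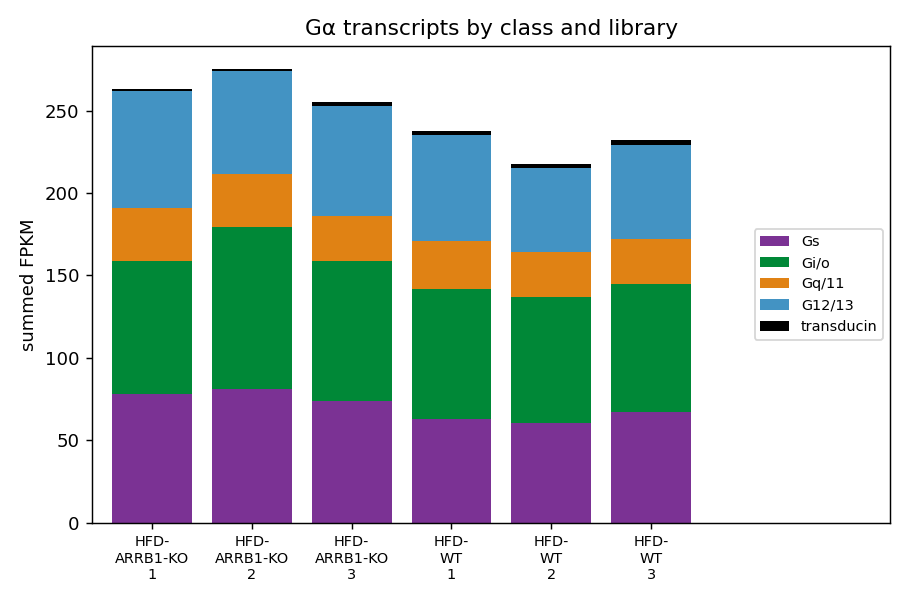
Summed FPKM (y axis) of Gα genes by class in each library, knockout libraries left. The knockout totals run from 255 to 275 FPKM and the wild-type totals from 218 to 238 FPKM, and the order of the classes by size within a bar changes little.

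Most Gβ and Gγ mRNA, by FPKM, came from Gnb1, Gnb2 and Gng5. Gnb1 was at 28.9, 34.9 and 31.9 FPKM in the knockout and at 28.02, 27.7 and 29.6 FPKM in wild type, and Gnb2 at 28.6, 30.4 and 27.2 FPKM against 26.9, 24.1 and 27.1 FPKM. Gnb1 overlapped and Gnb2 narrowly did not (limma, adjusted p = 0.340 and 0.370). Gng5 carried 69.7% to 74.1% of Gγ FPKM in the knockout and 70.6% to 75.6% in wild type. It was at 82.8, 83.8 and 80.8 FPKM in the knockout and at 81.8, 66.8 and 86.7 FPKM in wild type, with a difference of 0.08 (interval -0.17 to 0.33) that turned to -0.02 with median-of-ratios factors and to -0.03 on dropping wild-type replicate 2. Gng12 was at 13.1, 16.5 and 14.7 FPKM against 12.7, 12.3 and 12.1 FPKM in wild type, with no overlap (adjusted p = 0.199). Gng2, which is known from leukocytes, also had no overlap, with 0.583, 1.01 and 0.753 FPKM against 0.549, 0.421 and 0.405 FPKM (limma, adjusted p = 0.227). Its mean reached 0.5 FPKM through the knockout alone. Gnb4, Gng10 and Gng11 overlapped, with differences of 0.07, -0.04 and 0.29.

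Adcy6 and Adcy9 were the most abundant adenylyl cyclases, and no member of the family was called. Adcy6 (chromosome 15, 98589973 to 98610076, minus strand), a cyclase stimulated by Gs and inhibited by calcium, was at 7.17, 9.07 and 7.07 FPKM in the knockout libraries and at 5.89, 4.58 and 5.75 FPKM in the wild-type libraries. All knockout values were higher, with means of 7.77 ± 1.13 and 5.41 ± 0.716 FPKM (SD, n = 3 each) and a difference of 0.45 (limma, adjusted p = 0.0847). Adcy9 was at 5.92, 4.76 and 6.33 FPKM in the knockout and at 6.03, 5.99 and 6.63 FPKM in wild type, and overlapped. The ratio of Adcy6 to Adcy9 within a library, chosen after the values were seen, was 1.21, 1.90 and 1.12 in the knockout and 0.977, 0.766 and 0.867 in wild type (exact permutation p = 0.1, the smallest possible).

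Adcy7, a cyclase stimulated by Gβγ and abundant in blood cells, was at 1.05, 1.68 and 1.32 FPKM in the knockout and at 0.716, 0.925 and 0.555 FPKM in wild type (difference 0.44; limma, adjusted p = 0.115). Adcy5, the close relative of Adcy6, was at 0.867, 0.643 and 0.765 FPKM against 0.522, 0.467 and 0.437 FPKM, also without overlap (adjusted p = 0.214). Both lay wholly above wild type, and Adcy5 reached the mean of 0.5 FPKM through the knockout alone. Adcy3 and Adcy4 overlapped between groups, with differences of 0.08 and -0.07. Summed over the 10 cyclases, the level was 18.2 ± 0.968 FPKM in the knockout and 15.6 ± 0.899 FPKM in wild type (SD, n = 3 each), without overlap. Adcy6, with means of 7.77 and 5.41 FPKM, had the widest gap between group means in this sum.

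Phosphodiesterases were the family with the lowest median difference, at -0.06 over its 11 described members, and Pde8a, Pde9a and Pde3b had the 3 highest means of the family in both groups. Pde8a, specific for cAMP, was highest, at 10.9, 10.8 and 11.9 FPKM in the knockout and 13.02, 11.8 and 11.5 FPKM in wild type. Pde9a, specific for cGMP, followed at 9.23, 10.4 and 11.5 FPKM against 10.98, 9.999 and 11.6 FPKM in wild type, with overlap. Pde3b (chromosome 7, 114415281 to 114539251, plus strand), through which insulin lowers cAMP in liver and fat, was at 7.54, 8.46 and 7.49 FPKM in the knockout and at 9.75, 11.4 and 9.02 FPKM in wild type. All its knockout values lay below wild type, with a difference of -0.32 (95% interval -0.57 to -0.07; limma, adjusted p = 0.121). Pde3b lies 14.8 Mb from Arrb1 on the same chromosome, as do Pde8a (18.2 Mb, -0.10) and Rgs10 (28.8 Mb, 0.28).

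Of the phosphodiesterase 4 genes, which the beta-arrestins are known to recruit, Pde4d was at 0.585, 0.623 and 0.912 FPKM in the knockout and at 0.387, 0.337 and 0.517 FPKM in wild type (limma, adjusted p = 0.238). Its groups did not overlap, while those of Pde4a, Pde4b and Pde4c did, with differences of 0.22, -0.13 and -0.08. Pde4d reached the mean of 0.5 FPKM through the knockout alone. Pde4b, the immune and cAMP-induced isoform, ran from 2.43 to 4.78 FPKM in the knockout and from 2.46 to 7.05 FPKM in wild type. Summed over the 8 cAMP-specific genes, the level was 20.5 ± 2.44 FPKM in the knockout and 21.6 ± 1.82 FPKM in wild type, and over the 7 genes that act on both nucleotides it was 9.42 ± 0.845 FPKM and 11.6 ± 1.27 FPKM (SD, n = 3 each). The first pair overlapped and the second did not. Pde3b made up most of the second pair, with means of 7.83 FPKM in the knockout and 10.07 FPKM in wild type. Pde1a, Pde6d, Pde7a and Pde7b overlapped as well, with differences of -0.10, 0.02, -0.01 and 0.01. Pde6d is counted in the family by its symbol, but its product is noncatalytic and breaks down neither nucleotide.

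**Figure D4:**
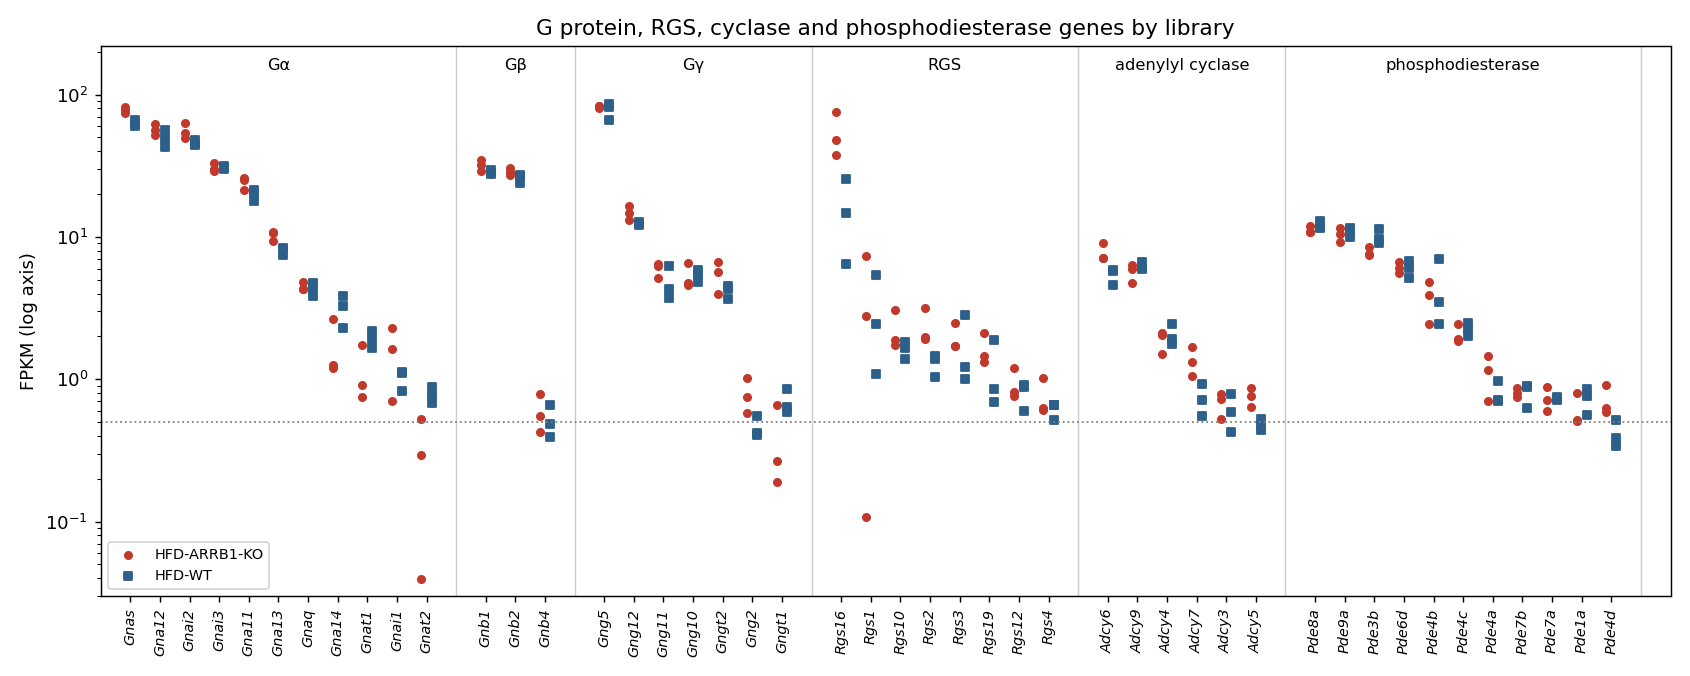
FPKM (log axis) of the 46 described members in each library, by family and in order of mean level, with HFD-ARRB1-KO (circles) left of HFD-WT (squares) and a dotted line at 0.5 FPKM. Levels run from above 80 FPKM for Gng5 to 0.0391 FPKM for Gnat2 in knockout replicate 1, and Rgs16 is the abundant gene with the widest gap between the groups.

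Of the 4 described transducin subunits, which serve photoreceptors in the retina, Gnat1, Gnat2 and Gngt1 had a negative difference and Gngt2 a positive one. Gnat2 and Gngt1 reached the mean of 0.5 FPKM through wild type alone, so the choice of members partly fixes their sign. Gnat2 was at 0.0391, 0.295 and 0.522 FPKM in the knockout libraries, on 1, 19 and 28 reads, and at 0.882, 0.761 and 0.683 FPKM in the wild-type libraries, on 54, 39 and 38 reads. It did not overlap and was not called (difference -0.48; limma, adjusted p = 0.117). Gnat1 was at 0.749, 0.904 and 1.74 FPKM against 1.66, 1.91 and 2.20 FPKM (adjusted p = 0.156), and Gngt1 at 0.191, 0.265 and 0.660 FPKM against 0.856, 0.642 and 0.591 FPKM (adjusted p = 0.257). Both overlapped in knockout replicate 3. Gngt2, the cone Gγ gene that blood cells also express, was at 3.96, 5.68 and 6.70 FPKM against 3.69, 4.28 and 4.52 FPKM, with overlap (difference 0.30; adjusted p = 0.310).

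Near the threshold of 0.5 FPKM, Gnb4, Gngt1 and Gnat2 were just inside with means of 0.551, 0.534 and 0.530 FPKM, and Pde3a, Gna15 and Pde5a just outside with 0.491, 0.329 and 0.279 FPKM. Of the described members, 5 had a mean under 0.5 FPKM in 1 of the groups and so passed through the other, Gngt1 and Gnat2 through wild type and Gng2, Adcy5 and Pde4d through the knockout. The 38 members below the threshold were not tested, and 9 of them were listed at 0 in every library. At the low end, 6 described members had under 30 reads in at least 1 library.

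Downstream and accessory genes of the pathway, 91 in 7 lists, were called higher for 3 of the 65 tested and lower for 0, against 4.40% and 1.34% of all genes tested, with a median difference of 0.01. At an unadjusted p under 0.05, 7 of the 65 were higher and 2 lower, against 18.1% and 5.95% of all genes tested. Voom called 5 of the 65 higher and 1 lower, against 6.80% and 1.72% of all genes tested. Arhgef12, a guanine nucleotide exchange factor that G12 and G13 bind, rose to 29.4, 28.2 and 28.3 FPKM in the knockout, against 21.4, 21.2 and 20.3 FPKM in wild type (limma, adjusted p = 0.0211). Prkca, a protein kinase C gene, rose to 2.36, 2.60 and 2.91 FPKM, against 1.74, 1.68 and 1.57 FPKM (adjusted p = 0.049). Nucb1, whose protein binds Gα subunits, rose to 98.2, 94.1 and 94.3 FPKM, against 73.8, 71.4 and 79.1 FPKM (adjusted p = 0.047). All 3 had no overlap, and no call was kept with median-of-ratios factors (adjusted p from 0.0585 to 0.118). On leaving out 1 library, Arhgef12 kept its call only when knockout replicate 1 was dropped (0.0487; otherwise 0.0526 to 0.0757), and Nucb1 (0.0572 to 0.141) and Prkca (0.0557 to 0.139) kept theirs in none of the 6 fits.

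By list, the calls were 1 of 11 among phospholipase C, protein kinase C and inositol trisphosphate receptor genes (median 0.10) and 1 of 8 among G protein chaperones and nonreceptor regulators (0.17). Both were higher, as were 4.40% of all genes tested. No gene was called among 15 protein kinase A, EPAC and CREB genes (median -0.09), 8 A-kinase anchoring proteins (-0.08), 4 guanylyl cyclase and cGMP kinase genes (0.04) or 14 cAMP-responsive liver genes (-0.29). The genes with the smallest p in these 4 lists were Prkar2a (-0.17; limma, adjusted p = 0.317), Akap10 (0.29; 0.134), Gucy1a3 (0.22; 0.441) and Tat (-1.27; 0.0537).

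The cAMP-responsive genes, 11 of 14 with a difference below 0, varied widely within groups. Tat, a tyrosine aminotransferase gene switched on by glucagon and glucocorticoids, was at 223, 273 and 462 FPKM in the knockout libraries and at 609, 1060.0 and 619 FPKM in the wild-type libraries, without overlap (difference -1.27; limma, adjusted p = 0.0537). Igfbp1, which insulin represses, was at 20.6, 93.0 and 373 FPKM against 120, 717 and 631 FPKM, and Irs2 at 3.49, 5.44 and 12.5 FPKM against 6.48, 22.9 and 17.2 FPKM. The lowest library of each group was replicate 1 for both genes, as it was for Rgs16, Rgs1 and Pde4b. Fos, an immediate early gene named after its values were seen, was at 1.24, 4.29 and 24.3 FPKM in the knockout and at 4.27, 38.8 and 7.08 FPKM in wild type. Within each group the order of the libraries was the same for Fos, Rgs1 and Pde4b. The labels give no feeding state or time of collection, and the part of either in these values was not tested.

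**Figure D5:**
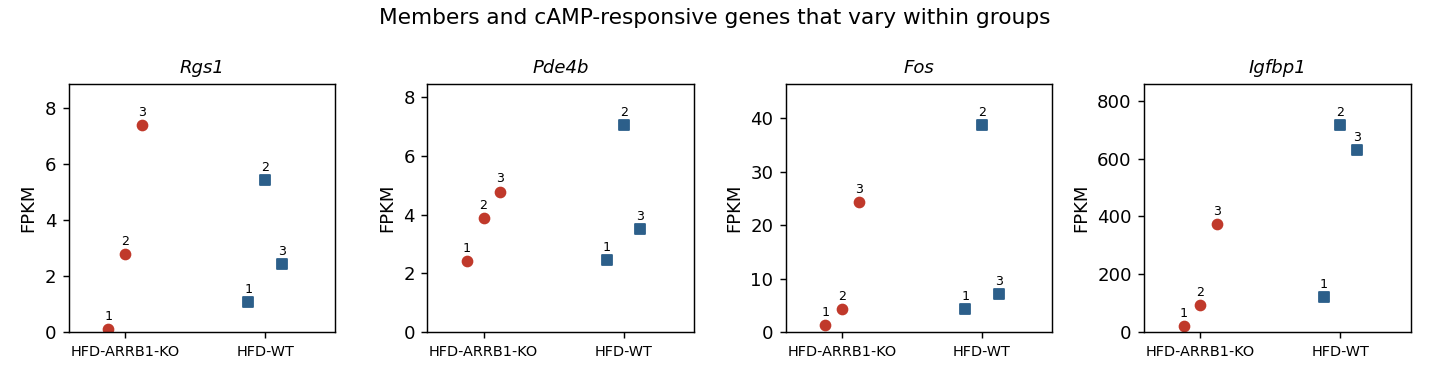
FPKM in each library (points, numbered by replicate) for Rgs1, Pde4b, Fos and Igfbp1, HFD-ARRB1-KO left and HFD-WT right. Replicate 1 is the lowest point of each group in all 4 panels, and the groups overlap for each gene.

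Markers of the labelled cell type were present in all libraries, and so were those of other liver cells. The 12 hepatocyte markers summed to 47600 to 54600 FPKM in the knockout and 48200 to 56600 FPKM in wild type, with 1 called higher (Cyp3a11) and 1 lower (Cps1). The 10 markers of recruited (monocyte-derived or lipid-associated) macrophages summed to 45.2 to 109 FPKM against 20.5 to 32.9 FPKM, with 3 called higher, and the 13 leukocyte markers to 12.2 to 25.4 FPKM against 8.70 to 13.1 FPKM, with 0 of 6 tested called. The 12 stellate cell and fibroblast markers summed to 138 to 224 FPKM against 116 to 136 FPKM (3 called higher) and the 12 endothelial markers to 199 to 230 FPKM against 173 to 194 FPKM (2 called higher). The 11 Kupffer cell markers summed to 339 to 425 FPKM against 328 to 356 FPKM, with 1 called lower (Vsig4). Of these 11, 3 lay wholly above wild type and 3 wholly below, against 22.4% and 7.71% of all genes tested. The smooth muscle and cholangiocyte sums overlapped, with 0 called. Of all genes tested, 4.40% were called higher and 1.34% lower. No marker was at 0 in all libraries.

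Knockout replicate 2 had the highest macrophage, leukocyte, stellate and endothelial sums. It also had the largest median-of-ratios factor of the 6 libraries, 1.0868 against 0.9512 to 1.0198 in the others. The sums and the counts that follow are on FPKM not divided by these factors. Over all described members, it was the highest of the 3 knockout libraries for 26 of 46 (56.5%), against 50.2% of all genes tested. It was so for 11 of the 13 members that lay wholly above wild type (84.6%), Rgs16, Rgs2, Adcy6, Adcy7 and Gng2 among them, against 58.7% of the 2705 genes tested that lay wholly above wild type. Adcy7, Gng2, Gngt2, Rgs1, Rgs10 and Rgs19 are known from blood cells, and the part of cell makeup in their values was not tested. In bulk libraries a change in the number of cells of a type and a change in RNA per cell cannot be told apart.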

How the data were processed

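RNA-seq was measured in 6 libraries, 3 HFD-ARRB1-KO and 3 HFD-WT, grouped by title. The authors deposited FPKM, 1 value per gene symbol and library. Per the submitters' processing notes, the tools were Bowtie 0.12.2 and HISAT2 and the builds named are mm8 and mm10. Their roles, the annotation and the handling of strand and of reads that match several genes are not given in the sources used here. Overlapping genes could therefore not be told apart. Among described members, Gng10 shares 72.0% of its exon bases with Gm20503 on the same strand. On the opposite strand, Adcy3 shares 22.1% with Cenpo, Gng2 20.4% with Gm48283 and Gna12 13.3% with Amz1. Also on that strand, Gnas shares 13.1% with Gm20721, Gngt2 12.5% with Abi3 and Rgs16 10.1% with Gm28513. Other members have smaller shares, such as Adcy6 with 8.9%.

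The two-sided test was that of limma 3.58.1 (R 4.3.3, eBayes, trend on) for genotype alone, on log2(FPKM + 1) of the 12078 genes whose mean reached 0.5 FPKM, adjusted by the Benjamini-Hochberg method. A call is an adjusted p under 0.05. Fold changes are knockout minus wild type on the log2(FPKM + 1) scale and understate the change of low genes. The filter of 0.5 FPKM lets each described member be tested. No label says whether replicates are separate animals, and the p-values reflect library-to-library spread, which may be technical.

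Dividing FPKM by its step per gene and library gave reads. They were whole for all 17549 genes found above 0 in 4 or more libraries (tolerance 0.001 reads, plus a relative 5e-08, capped at 0.05 reads). With the search stopped at 2000 reads, 0 of 2000 genes came out whole with wrong steps and 1883 with the right ones. Depth was set from 2879 single-transcript genes, and 523 of them shared the most common 0.5% interval. The test was also run on simulated data of 11987 genes. It recovered 74 of 100 changes of 2-fold and 95 of 100 changes of 4-fold. Of its 175 calls, 6 were unchanged genes. Smaller changes were not simulated.

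Named with every value were members that were called, those with a difference of at least 0.5 and no overlap, and in each of 6 families the 2 highest by mean and the largest difference. From the other lists, up to 4 genes with the smallest p were eligible. Other genes given by library, and the promoters, were picked with their values in view. The separate count for 1 of the 7 other lists is not reported here. The members and lists were chosen with earlier results of these data known. Positions are from GENCODE vM21 (GRCm38) by symbol and are not part of the deposited values. Python 3.11.15 with pandas 2.3.3, scipy 1.17.1 and matplotlib 3.10.9 was used for the other steps.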

Additional observations from a re-analysis of the deposited data

How the results depend on the processing

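The 17 alternatives changed the pseudocount (0.1), the filter (none, or 1 FPKM), the scale (TPM, median-of-ratios factors, quantiles), the variance model (no trend, robust, or voom on recovered reads), the design (replicate block) or the libraries (each dropped in turn, or both labelled ARRB2 or ARRB3). The number of members called higher, 0 as reported, was 1 with the filter at 1 FPKM, 2 on the TPM scale, 1 with the replicate block, 3 with voom and 0 to 1 with 1 library left out. The number called lower, 0 as reported, was 0 to 1 with 1 library left out. Of the other genes of the pathway, 3 were called higher as reported, 1 with no filter, 0 with median-of-ratios factors, with quantiles, with the replicate block and without both libraries labelled ARRB2 or ARRB3, 5 with voom, and 0 to 2 with 1 library left out. None was called lower as reported, 1 (Tat) with the filter at 1 FPKM, on the TPM scale and with voom, and 0 to 1 with 1 library left out. The cause of these moves was not tested, beyond the smaller number of genes adjusted over at 1 FPKM (10633).

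The 16 members named by the rule gave 271 estimates under the alternatives, of which 263 kept their side of the threshold and 8 passed it. In 5 the sign turned, with no call, for Gng5, Pde9a and Rgs1. Without both libraries labelled ARRB2 or ARRB3 the lone knockout library was assumed to vary like wild type, and Rgs16 had a difference of 1.39 (limma, adjusted p = 0.412).

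The replicate numbers were not shown to pair the libraries. Deviations of libraries with the same number correlated at 0.149, -0.063 and 0.082 over genes, and those with different numbers at -0.221 to 0.121. With the block 233 genes were called higher and 116 lower of all tested. Over all genes, calls numbered 531 higher and 162 lower as reported, 88 and 58 with no filter, 918 and 166 on the TPM scale, 349 and 222 with median-of-ratios factors, 821 and 208 with voom, and 36 and 39 without both libraries labelled ARRB2 or ARRB3. Of the 46 members, 13 have a mean under 1 FPKM, where a pseudocount of 1 shrinks differences.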

Other observations

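Several described members lie beside a relative on the chromosome, in 5 pairs with a gap of at most 500 kb (GENCODE vM21, GRCm38). Gnat2 lies 5.85 kb from Gnai3 on chromosome 3 and Gnat1 lies 39.1 kb from Gnai2 on chromosome 9, each a transducin gene beside an inhibitory Gα gene. Gngt1 lies 6.47 kb from Gng11 on chromosome 6 and Gna14 lies 48.3 kb from Gnaq on chromosome 19. These 4 pairs are written with the gene of lower difference first, so that order is not a result. The log2 values were -0.48 for Gnat2 and -0.48 for Gnat1 against 0.26 for Gnai2. They were -0.32 for Gngt1 against 0.29 for Gng11, and -0.64 for Gna14 against 0.04 for Gnaq. Gnai3 had an interval of -0.19 to 0.18. None of these was called (limma), the pairs were noticed after the values were seen, and the difference within a pair was not tested. Gnat2 and Gngt1 reached the mean of 0.5 FPKM through wild type alone, so the choice of members partly fixes their sign. Rgs1 and Rgs2 lie 238 kb apart on chromosome 1, which holds 10 of the 20 RGS genes, and had differences of -0.13 and 0.54.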
